A study of Mus musculus with 9 samples.

Results

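Splicing factors and hnRNP proteins were described in mouse blood RNA as the 56 genes, of 20926 with a value, whose symbol starts with Srsf, Hnrnp, Snrp, Sf3a, Sf3b or U2af. They comprise 11 SR proteins (Srsf), 21 hnRNP proteins (Hnrnp), 12 snRNP proteins (Snrp) and 12 subunits of SF3a, SF3b and U2AF. Genes whose symbol starts with Snrnp, such as that of the U1 70 kDa protein, are not taken by this rule and are given with the rest of the spliceosome. The blood came from male DBA/1 mice labelled as 7-week-old, which in the methods of the study is their age at grouping and first immunisation, so that they were older when blood was taken. DBA/1 is a strain that develops arthritis after immunisation with type II collagen. There were 3 libraries in each of 3 groups. Ctrl mice had no arthritis and no irradiation. CIA mice had collagen-induced arthritis, set up with chick collagen in Freund's adjuvant, without irradiation. CIA+THz mice were made arthritic in that way too, and terahertz waves of 0.1 THz were then directed at their swollen ankle joints on 14 days, for 30 min each day. These mice were under isoflurane during each session, and the sources used here name no such anaesthesia for the other groups, so the effects of irradiation and anaesthesia cannot be told apart. The labels do not say that the 3 libraries of a group came from separate mice, so the p-values measure the spread between these libraries.

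Pre-mRNA splicing removes introns from new transcripts. The spliceosome is built from small nuclear ribonucleoproteins, in which a ring of Sm proteins holds the snRNA. U2AF and the SF3a and SF3b subunits of the U2 particle recognise the 3′ splice site and the branch point. SR proteins bind exonic enhancers and promote the use of nearby splice sites, while hnRNP proteins coat the transcript and often act against SR proteins. Many SR and hnRNP genes limit their own output through a poison exon or an intron in the 3′ end whose inclusion or splicing sends the transcript to nonsense-mediated decay. In leukocytes these factors take part in the choice of exons in genes such as that of CD45.

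Values are FPKM, fragments per kilobase of transcript scaled to the number of mapped fragments, divided by 1 factor per library (rescaled FPKM) and compared as log2(rescaled FPKM + 0.1) with limma. Fold changes are on that scale, which understates the change of genes with low values. A gene was tested where its mean rescaled FPKM was at least 0.1, which held for 12366 genes and for 55 of the 56 members. The exception was Hnrnpa1l2-ps2, a processed pseudogene of Hnrnpa1 with a mean of 0.0107. The highest members were Hnrnpa0 with a mean of 103.1, Hnrnpf with 101.5 and Hnrnpul1 with 100.2 rescaled FPKM, and the lowest tested member was Srsf12 with 0.178. In every family most members were well detected: the highest SR, snRNP and SF3 members were Srsf6 (mean 80.9), Snrpb (80.4) and Sf3b3 (96.8), and the lowest besides Srsf12 were Hnrnpll (3.16), Snrpn (1.77) and U2af1l4 (1.09).

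The libraries differed in ways that touch these genes. Between 11801 and 12066 genes were above 0 in the CIA libraries, 11816 to 12264 in Ctrl and 12449 to 12807 in CIA+THz. The erythroid gene Alas2 alone held 11.4% to 16.7% of all FPKM, although the label is blood leukocyte, and its share was 11.4% to 14.0% in CIA+THz against 16.3% to 16.7% in CIA. Together the members held 0.295% to 0.384% of all FPKM in Ctrl, 0.312% to 0.328% in CIA and 0.406% to 0.437% in CIA+THz. The higher share in CIA+THz is a property of the FPKM as deposited, where the median gene is also 0.27 higher (log2) against CIA and 0.29 higher against Ctrl than after rescaling. All changes below are therefore relative to the median gene, and the split without rescaling is given beside each comparison. Pearson correlations of log2 values were 0.934 to 0.963 between libraries of a group and 0.923 to 0.957 between groups.

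RefSeq promoter windows of build GRCm38.p6 were found for 49 of the 56 members, 67 windows in all. The 250 bases before the transcription start are shown for Hnrnpdl, Srsf6 and Srsf1, the members with the smallest p-values among those that fell in CIA and stood higher again in CIA+THz, and for U2af1, the member that was higher in CIA by the fold criterion. They run 5′ to 3′ on the gene's strand. Capitals mark matches on either strand to the SP1 box, GGGCGG. The same holds for the second motif marked, the CCAAT box. No match to the ETS core, CCGGAAG, was found in them. The fourth motif searched was the TATA box in the form TATAAA, which was not found either.
Hnrnpdl, chr5:100039223-100039472, minus strand: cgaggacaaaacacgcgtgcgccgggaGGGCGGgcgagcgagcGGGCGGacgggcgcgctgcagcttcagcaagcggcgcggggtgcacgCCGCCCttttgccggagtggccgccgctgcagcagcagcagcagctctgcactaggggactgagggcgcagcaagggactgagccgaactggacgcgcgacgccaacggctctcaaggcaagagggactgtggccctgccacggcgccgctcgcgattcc
Srsf6, chr2:162931258-162931507, plus strand: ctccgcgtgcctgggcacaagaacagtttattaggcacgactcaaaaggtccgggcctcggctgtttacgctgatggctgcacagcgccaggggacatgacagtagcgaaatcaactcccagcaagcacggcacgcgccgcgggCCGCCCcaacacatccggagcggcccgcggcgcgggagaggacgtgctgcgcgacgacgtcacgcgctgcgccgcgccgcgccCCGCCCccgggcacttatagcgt
Srsf1, chr11:88047123-88047372, plus strand: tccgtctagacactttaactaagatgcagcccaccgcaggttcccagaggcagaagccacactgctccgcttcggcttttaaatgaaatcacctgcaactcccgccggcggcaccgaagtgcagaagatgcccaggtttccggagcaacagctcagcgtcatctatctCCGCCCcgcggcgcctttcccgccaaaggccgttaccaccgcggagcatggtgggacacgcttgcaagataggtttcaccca
U2af1, chr17:31658765-31659014, minus strand: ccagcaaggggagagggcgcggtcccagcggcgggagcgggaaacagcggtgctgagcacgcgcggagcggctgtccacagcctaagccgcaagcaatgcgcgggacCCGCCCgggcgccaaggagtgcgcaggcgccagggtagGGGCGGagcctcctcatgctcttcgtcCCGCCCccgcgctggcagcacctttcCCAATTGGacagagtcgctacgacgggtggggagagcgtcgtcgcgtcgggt
The 4 windows are rich in G and C and each holds at least 1 SP1 box, and that of U2af1 also holds CCAATTGG, in which CCAAT boxes of both strands overlap. In GENCODE the minus-strand genes Hnrnpdl and U2af1 reach further, to 100039664 and 31658892. By that annotation the whole Hnrnpdl window, and the part of the U2af1 window with CCAATTGG, lie inside the gene.

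Among the 14 windows of SR genes, 13 (92.9%) held GGGCGG on either strand, as did 20 of 28 hnRNP windows (71.4%), 6 of 11 SF3 and U2AF windows (54.5%) and 5 of 14 snRNP windows (35.7%). The shares were 55.6% of the windows of tested genes and 32.7% of all 32851 RefSeq windows. The snRNP windows came from 10 genes, of which Snrpa, Snrpa1, Snrpb2, Snrpd2 and Snrpd3 held the box. Snrpn has several windows far apart, all without it, so the share by window is below that by gene. The ETS core stood in 6 SR windows (42.9%), 7 SF3 and U2AF windows (63.6%), 3 snRNP windows (21.4%) and 3 hnRNP windows (10.7%). It stood in 13.2% of windows of tested genes and 6.91% of all windows. CCAAT stood in 18 hnRNP windows (64.3%), 5 SF3 and U2AF windows (45.5%), 4 snRNP windows (28.6%) and 3 SR windows (21.4%). Its share was 35.2% for tested genes and 33.8% for all windows. TATAAA stood in 7 member windows (10.4%), against 6.76% for tested genes and 12.4% for all windows. These are counts of letters, several genes have overlapping windows, and no factor's binding was measured.

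The first question was which members differed in any way among the 3 groups. In limma's F-test 13 of the 55 tested members had p below 0.05 (23.6%), close to the 21.3% of all tested genes. They were Srsf1, Srsf3, Srsf6 and Srsf10, the hnRNP genes Hnrnpa1, Hnrnpc, Hnrnpd and Hnrnpdl, Snrpb and Snrpn, and Sf3a1, Sf3b1 and U2af1. With Benjamini-Hochberg adjustment over all tested genes 2 remained, Hnrnpdl (adjusted p = 0.0296) and Srsf6 (adjusted p = 0.0461), or 3.64% of members against 2.53% of all tested genes. What follows describes how the families moved.

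Hnrnpdl, which encodes an hnRNP D-like protein that regulates splicing and its own transcript, had the smallest p of all members. Its rescaled FPKM was 25.5, 28 and 27.4 in Ctrl, 18.6, 17.9 and 19.0 in CIA, and 27.0, 27.5 and 28.1 in CIA+THz. All 3 CIA libraries lay below all others, and the CIA+THz values overlapped those of Ctrl. The log2 fold change was -0.54 (SE 0.11, limma adjusted p = 0.0892) for CIA against Ctrl and 0.57 (SE 0.088, adjusted p = 0.172) for CIA+THz against CIA. Both kept p below 0.05 without any 1 library. The 2 comparisons share the CIA libraries, so opposite signs in them are not independent.

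Srsf6, an SR protein that acts in the choice of exons, read 92.1, 91.3 and 95.1 in Ctrl, 60.5, 64.6 and 70.6 in CIA, and 80.9, 85.4 and 87.4 in CIA+THz. On this rescaled scale the 3 groups did not overlap, with CIA+THz between CIA and Ctrl. In the FPKM as deposited the CIA+THz and Ctrl libraries of Srsf6 overlapped, and CIA was below both. Its log2 fold change was -0.51 (SE 0.10, limma adjusted p = 0.0861) in CIA against Ctrl and 0.38 (SE 0.091, adjusted p = 0.220) in CIA+THz against CIA. Srsf1, the SR protein long known as ASF/SF2, read 35.5, 31.2 and 33.7 in Ctrl, 22.5, 18.8 and 24.1 in CIA, and 30.0, 30.6 and 27.2 in CIA+THz. Its rescaled values stood in the same order without overlap. As for Srsf6, CIA+THz and Ctrl overlapped in the FPKM as deposited. The log2 fold changes were -0.62 (SE 0.14, limma adjusted p = 0.0996) and 0.43 (SE 0.12, adjusted p = 0.263). An annotated gene, Gm11508, overlaps Srsf1 on the opposite strand.

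**Figure D1:**
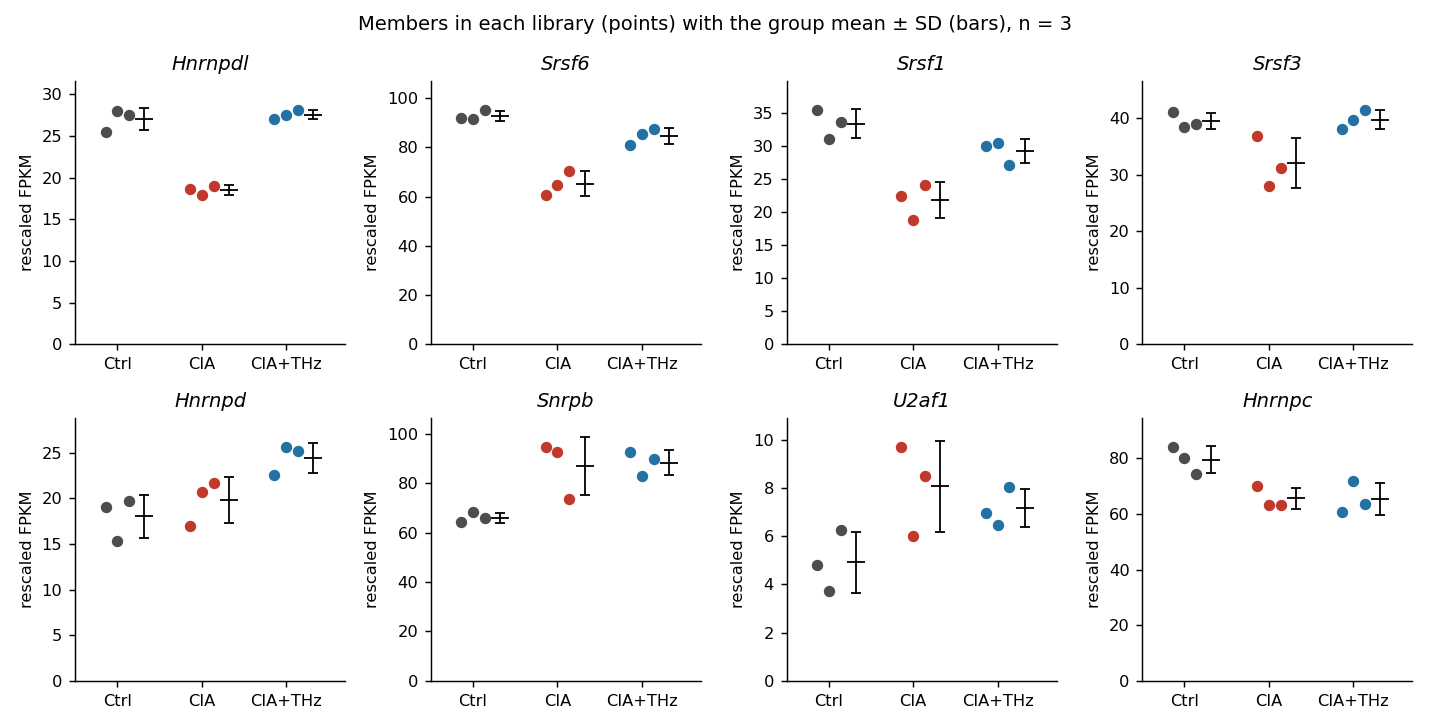
Rescaled FPKM (y axis, from 0) of 8 members in each library of Ctrl, CIA and CIA+THz. Points are libraries and bars the group mean ± SD (n = 3). Hnrnpdl, Srsf6 and Srsf1 are below every other library in all 3 CIA libraries, while Snrpb is above Ctrl in CIA and in CIA+THz.

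In CIA against Ctrl all 11 SR proteins had a fold change below 0, some of them by less than 1 SE. Their median log2 fold change was -0.32 against -0.0051 over all tested genes. Of these, 5 had p below 0.05: Srsf1, Srsf3, Srsf6, Srsf7 and Srsf10. That is 45.5% of the SR proteins, where 8.45% of all tested genes were lower at that threshold. Srsf10, which represses splicing when dephosphorylated, read 14.6, 16.0 and 16.1 in Ctrl and 12.4, 9.28 and 10.3 in CIA, and CIA+THz lay at 12.1, 13.4 and 13.7. Every CIA library was below every Ctrl library (log2 fold change -0.55, SE 0.16, limma adjusted p = 0.164). Srsf7, which also serves in mRNA export, read 4.75 to 5.67 in Ctrl, 3.51 to 4.01 in CIA and 4.43 to 4.61 in CIA+THz. Its groups did not overlap on this scale, but CIA+THz and Ctrl did in the FPKM as deposited. Its fold change in CIA was -0.48 (SE 0.20, adjusted p = 0.280). It lost p below 0.05 without any 1 library other than Ctrl replicate 2 (-0.42 to -0.53), and was -0.24 with correction for GC content. In that correction the dependence of log2 values on the GC content of a gene's longest annotated transcript was removed from each library. Srsf3, the smallest SR protein, read 41.1, 38.5 and 38.9 in Ctrl, 36.9, 28 and 31.2 in CIA and 38.1, 39.7 and 41.4 in CIA+THz. CIA lay below both other groups, which overlapped (-0.31, SE 0.13, adjusted p = 0.288). Srsf3 kept p below 0.05 only when CIA replicate 1 was the library left out, and without any other 1 it was -0.22 to -0.33.

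The other SR proteins did not pass the test in CIA against Ctrl without GC correction. Srsf2, which has overlapping neighbours Mfsd11 and Mettl23 on the opposite strand, read 27.1 to 31.9 in Ctrl and 20.4 to 27.4 in CIA (-0.32, SE 0.15, limma adjusted p = 0.315). With GC correction Srsf2 was at -0.36 (SE 0.15, adjusted p = 0.338), at unadjusted p below 0.05. Srsf5 read 56.8 to 59.7 in Ctrl and 49.3 to 51.4 in CIA (-0.22, SE 0.096, adjusted p = 0.291), and no CIA library reached a Ctrl library. Its fold change became 0.055 with GC correction (adjusted p = 0.873). Srsf4 (-0.023, SE 0.23), Srsf9 (-0.084, SE 0.31) and Srsf12 (-0.087, SE 1.02) were below 0 by less than their SE. Srsf12 was at 0 in 4 of the 9 libraries, and its highest value, 1.06, was in 1 CIA library. Its mean was 0.354 in CIA and 0.145 in Ctrl, so its fold change is below 0 on the log scale only. The number of SR proteins below 0 was 9 to 11 when any 1 library was left out, 10 without rescaling, and 9 after correction for GC content.

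In CIA+THz against CIA 9 of the 11 SR proteins were above 0, with a median of 0.17 against 0.025 for all tested genes. Srsf1, Srsf3 and Srsf6 passed p below 0.05. They are 27.3% of the SR proteins, where 5.89% of all tested genes were higher at that threshold. The fold change of Srsf3 was 0.32 (SE 0.12, limma adjusted p = 0.338), and it lost p below 0.05 without any 1 library other than CIA replicate 1 (0.23 to 0.35). Srsf10 had 0.30 (SE 0.14, adjusted p = 0.423), with CIA+THz values of 12.1 to 13.7 against 9.28 to 12.4. In CIA+THz against Ctrl no SR protein passed, the median was -0.17 against 0.039 for all tested genes, and 9 of 11 were below 0. The direction depended on the scaling. Without rescaling 10 of 11 were above 0, 1 of them at p below 0.05, with a median of 0.14 against 0.33 for all genes. Scaled to an equal sum outside the highest genes, 5 were above 0, with a median of -0.024 against 0.17. With GC correction Srsf2 alone passed p below 0.05 in that comparison (-0.30, SE 0.12, limma adjusted p = 0.217). The count of SR proteins above 0 in CIA+THz against CIA was 8 to 11 with any 1 library left out, and 8 after GC correction, where none passed p below 0.05.

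**Figure D2:**
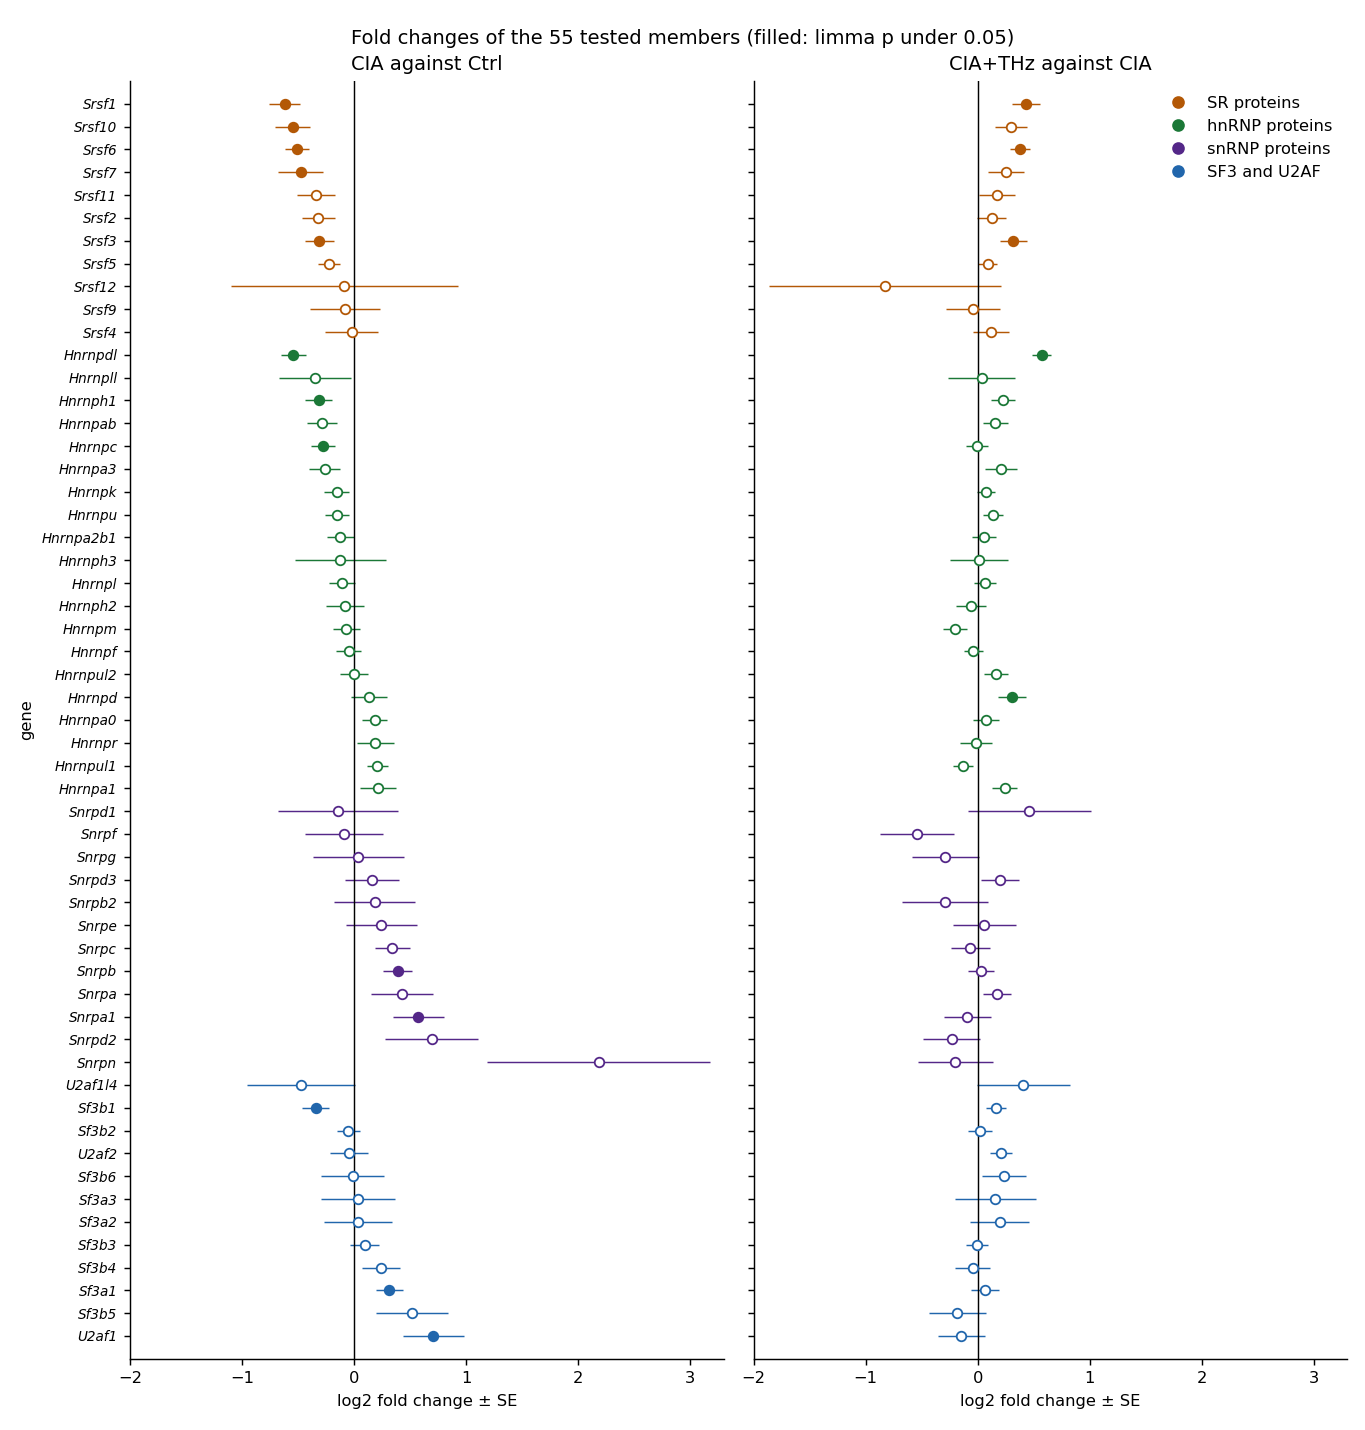
Log2 fold change ± SE (x axis) of the 55 tested members, grouped by family and ordered by CIA against Ctrl, for CIA against Ctrl (left) and CIA+THz against CIA (right). Filled points have limma p below 0.05. All 11 SR proteins are left of 0 in CIA against Ctrl and 10 of 12 snRNP proteins are right of it; both panels share the CIA libraries.

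The hnRNP proteins were less uniform. In CIA against Ctrl 15 of 20 were below 0, with a median of -0.12, and 3 had p below 0.05, all lower: Hnrnpdl, Hnrnpc and Hnrnph1. These are 15% of the tested hnRNP proteins, where 8.45% of all tested genes were lower. With correction for GC content the direction of the family turned, with 12 of 20 above 0 and a median of 0.029. Hnrnpa1 and Hnrnpr were then higher at p below 0.05 and Hnrnpdl alone lower, where 935 of all 12198 genes were higher and 818 lower. Hnrnpc, which binds uridine tracts and keeps cryptic exons out, read 84.1, 80.0 and 74.5 in Ctrl, 70.1, 63.3 and 63.3 in CIA, and 60.6, 72.0 and 63.5 in CIA+THz. Both arthritic groups lay below Ctrl and overlapped each other. Its fold change was -0.28 in CIA against Ctrl (SE 0.11, limma adjusted p = 0.244) and -0.28 in CIA+THz against Ctrl (SE 0.10, adjusted p = 0.223), and the latter was 0.022 without rescaling. The former went to -0.080 with GC correction (adjusted p = 0.793). It also lost p below 0.05 without Ctrl replicate 1 or 2 or CIA replicate 2 or 3 (-0.24 to -0.27), and the latter without Ctrl replicate 1 or 2 or CIA+THz replicate 1 or 3 (-0.23 to -0.28). Hnrnph1, which binds G runs, read 41.8 to 45.6 in Ctrl, 31.6 to 39.0 in CIA and 38.8 to 43.7 in CIA+THz (-0.32, SE 0.12, adjusted p = 0.245), and this became 0.046 with GC correction and lost p below 0.05 without Ctrl replicate 1 or 3 or CIA replicate 1 or 2 (-0.24 to -0.32). Hnrnpab read 15.3 to 16.7 in Ctrl and 11.8 to 13.7 in CIA without overlap, but did not pass (-0.29, SE 0.13, adjusted p = 0.317). Phykpl overlaps Hnrnpab on the opposite strand.

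Hnrnpd, a close relative of Hnrnpdl, encodes AUF1, a protein that binds AU-rich elements of cytokine transcripts. It read 19.1, 15.3 and 19.7 in Ctrl, 17.0, 20.8 and 21.7 in CIA and 22.6, 25.6 and 25.1 in CIA+THz, so that every CIA+THz library lay above all others. The fold change was 0.31 against CIA (SE 0.13, limma adjusted p = 0.370) and 0.44 against Ctrl (SE 0.13, adjusted p = 0.167). The difference from CIA went to 0.11 with GC correction (adjusted p = 0.778) and lost p below 0.05 without CIA replicate 1 or 2 or CIA+THz replicate 2 or 3 (0.20 to 0.35), while that from Ctrl was 0.48 with GC correction and kept p below 0.05 without any 1 library. An annotated gene, Gm17092, overlaps Hnrnpd on the opposite strand. Hnrnpa1, a repressor of exon inclusion, read 40.2, 56.1 and 54.3 in Ctrl, 63.8, 51.5 and 57.9 in CIA and 62.8, 68.1 and 73.8 in CIA+THz. It was above Ctrl in all CIA+THz libraries (0.46, SE 0.15, adjusted p = 0.184, or 0.40 and no longer at p below 0.05 without CIA+THz replicate 3), though processed copies such as Hnrnpa1l2-ps2 may share its reads. Hnrnpm was lower in CIA+THz, at 20.3 to 21.8 against 24.4 to 26.6 in Ctrl (-0.27, SE 0.10, adjusted p = 0.236), and this became 0.037 without rescaling. It lost p below 0.05 without Ctrl replicate 3 or CIA+THz replicate 1 or 2 (-0.23 to -0.25). It overlaps March2 on the same strand. Hnrnpa0 (83.1 to 98.6 in Ctrl, 100.7 to 110.7 in CIA) and Hnrnpll, which acts in CD45 exon choice (2.65 to 5.24 and 2.45 to 3.39), did not pass in any pair of groups.

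The snRNP proteins stood on the other side of 0 from the SR proteins in CIA against Ctrl. Of the 12, 10 were higher, with a median of 0.29, and 2 passed p below 0.05, Snrpb and Snrpa1. These are 16.7% of the snRNP proteins, where 8.85% of all tested genes were higher. Without CIA replicate 1 the number higher was 6, and it was 10 or 11 without any other library. Snrpb, the Sm ring protein B, read 64.2, 68.2 and 65.7 in Ctrl, 94.7, 92.6 and 73.6 in CIA and 92.5, 82.7 and 89.7 in CIA+THz. Every library of both arthritic groups was above Ctrl. The fold changes against Ctrl were 0.39 in CIA (SE 0.13, limma adjusted p = 0.201) and 0.42 in CIA+THz (SE 0.091, adjusted p = 0.114), and that between the arthritic groups was 0.030 (SE 0.12, adjusted p = 0.946). The difference of CIA from Ctrl was 0.31 and no longer at p below 0.05 with GC correction, and lost it without Ctrl replicate 1 or CIA replicate 1 or 2 (0.32 to 0.37). That of CIA+THz from Ctrl kept it under both. Snrpa1, the U2 A′ protein, read 4.61 to 7.68 in Ctrl, 8.34 to 10.1 in CIA and 6.46 to 10.9 in CIA+THz (0.57, SE 0.23, adjusted p = 0.262 in CIA against Ctrl). It lost p below 0.05 without any 1 library other than Ctrl replicate 2 (0.38 to 0.63). With GC correction it was 0.71 (SE 0.24, adjusted p = 0.245), at unadjusted p below 0.05. An annotated gene, Gm45213, overlaps Snrpa1 on the same strand.

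Other snRNP members had wider spreads. Snrpa, the U1 A protein, read 8.96 to 19.7 in Ctrl and 16.2 to 20.6 in CIA, and 19.3 to 21.2 in CIA+THz. Snrpc, the U1 C protein, read 37.0 to 43.9, 43.0 to 61.7 and 40.8 to 54.6. With GC correction its fold change in CIA against Ctrl was 0.43 (SE 0.17, limma adjusted p = 0.298), at unadjusted p below 0.05. Snrpd2, an Sm ring protein, ran from 14.9 to 41.9 in Ctrl alone, and 1 CIA library stood at 65.9. Snrpn, a paralog of Snrpb that shares its transcript with Snurf, was listed at 0 in 1 Ctrl library, with 1.80 and 0.708 in the others and 2.12 to 2.47 in CIA. It passed the F-test at p below 0.05 on these low values, and passed in no pair of groups without GC correction. With GC correction Snrpn was higher in CIA than in Ctrl (2.29, SE 0.94, limma adjusted p = 0.324), at unadjusted p below 0.05. Snrpf (1.91 to 2.87 in Ctrl, 1.14 to 1.72 in CIA+THz) was below Ctrl in all CIA+THz libraries without passing the test (-0.63, SE 0.30, limma adjusted p = 0.318). Reads shared with processed copies of the short Sm genes were not measured.

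Among the branch point and 3′ splice site factors, Sf3b1 was lower in CIA while Sf3a1 and U2af1 were higher. Sf3b1, the SF3b subunit that clamps the branch point, read 105., 84.9 and 98.0 in Ctrl, 76.1, 69.9 and 80.1 in CIA and 86.1, 80.2 and 86.9 in CIA+THz (-0.34, SE 0.12, limma adjusted p = 0.223). This went to -0.12 with GC correction (adjusted p = 0.675), and it lost p below 0.05 without Ctrl replicate 1 or 3 or CIA replicate 2 (-0.28 to -0.33). Sf3a1 read 14.4 to 15.5 in Ctrl, 18.0 to 19.5 in CIA and 17.0 to 22.2 in CIA+THz, with both arthritic groups above Ctrl (0.31, SE 0.12, adjusted p = 0.247 for CIA and 0.38, SE 0.13, adjusted p = 0.206 for CIA+THz). Both were 0.27 and no longer at p below 0.05 with GC correction. The first lost it without Ctrl replicate 1 or 2 or CIA replicate 2 (0.28 to 0.31), and the second without Ctrl replicate 1 or CIA+THz replicate 2 or 3 (0.28 to 0.38). U2af1, the small U2AF subunit that reads the AG at the intron's end, read 4.80, 3.73 and 6.24 in Ctrl, 9.70, 6.0 and 8.50 in CIA and 6.98, 6.48 and 8.05 in CIA+THz. CIA and Ctrl overlapped. The fold change was 0.70 in CIA (SE 0.27, adjusted p = 0.250) and 0.56 in CIA+THz (SE 0.22, adjusted p = 0.251). With GC correction these were 0.56 (adjusted p = 0.389) and 0.40 (adjusted p = 0.361), neither at p below 0.05. The first lost it without Ctrl replicate 1 or 2 or CIA replicate 1 or 3 (0.52 to 0.70), and the second without any 1 library other than Ctrl replicate 3 (0.38 to 0.63). Its partner U2af2 read 13 to 18.8 in Ctrl and 14.1 to 16.0 in CIA, and Sf3b4 and Sf3b5 had fold changes of 0.24 and 0.52 that did not pass (adjusted p = 0.508 and 0.451).

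Counted over all families, 9 members were lower and 4 higher in CIA against Ctrl at p below 0.05 (16.4% and 7.27%), where 8.45% of all tested genes were lower and 8.85% higher. With the added demand of an absolute log2 fold change above 0.67, the study's criterion, U2af1 was the only one that was higher, where 4.79% of all tested genes were, and none was lower, where 4.25% were. U2af1 no longer met that criterion with GC correction, without rescaling, with scaling to an equal sum outside the 100 highest genes, with a pseudocount of 1 (0.61) or without any 1 of 4 of the 6 libraries. No member passed adjusted p below 0.05 (limma), where 0.154% of all tested genes did. Without rescaling, 2 members were higher and 4 lower at p alone, where 1024 of all 12394 tested genes were higher and 860 lower. With GC correction 5 were higher and 4 lower, where 935 of all 12198 tested genes were higher and 818 lower. Then 32 of the 55 members were above 0 where 22 had been, as were 6004 of all 12198 genes.

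In CIA+THz against CIA 5 members were higher at p below 0.05, namely Hnrnpd, Hnrnpdl, Srsf1, Srsf3 and Srsf6, or 9.09% against 5.89% of all tested genes. None was lower, where 7.33% of all tested genes were. None met the fold criterion in either direction, where 2.94% of all tested genes were higher and 1.6% lower, and no gene of any kind passed adjusted p below 0.05 in limma (0%). Without rescaling, where the median gene also shifts upward, 29 of the 55 members were higher at p alone and none lower. Of all 12394 genes then tested, 2462 were higher and 138 lower.

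In CIA+THz against Ctrl 5 members were higher at p below 0.05, namely Hnrnpa1, Hnrnpd, Sf3a1, Snrpb and U2af1, or 9.09% against 8.39% of all tested genes. Hnrnpc and Hnrnpm were lower, 3.64% against 9.69%. None met the fold criterion, where 4.64% of all tested genes were higher and 3.24% lower, and none passed adjusted p below 0.05 in limma, where 0.105% of all tested genes did. Without rescaling 20 members were higher at p alone and none lower, where 2666 of all 12394 tested genes were higher and 292 lower. With GC correction 3 were higher and 3 lower, where 704 of all 12198 tested genes were higher and 1589 lower.

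Ratios between genes of a library do not depend on how the libraries are scaled. The summed FPKM of the SR proteins over that of the snRNP proteins was 1.70, 1.23 and 1.35 in Ctrl, 0.682, 0.865 and 1.05 in CIA, and 0.999, 1.08 and 0.995 in CIA+THz. Both arthritic groups lay below Ctrl and overlapped each other. The ratio of Hnrnpdl to its relative Hnrnpd was 1.34, 1.83 and 1.39 in Ctrl, 1.10, 0.861 and 0.875 in CIA, and 1.20, 1.07 and 1.12 in CIA+THz. Here too both arthritic groups lay below Ctrl and overlapped each other. The ratio of Srsf6 to Snrpb was 1.43, 1.34 and 1.45 in Ctrl, 0.640, 0.698 and 0.959 in CIA, and 0.875, 1.03 and 0.974 in CIA+THz. Ratios can still carry a dependence on GC content, which was 42.8% for Srsf6 and 51.2% for Snrpb, and 46.4% for Hnrnpdl and 41.7% for Hnrnpd. Its part in the ratios was not tested. All 3 ratios were chosen after the values were seen and are given with no test.

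**Figure D3:**
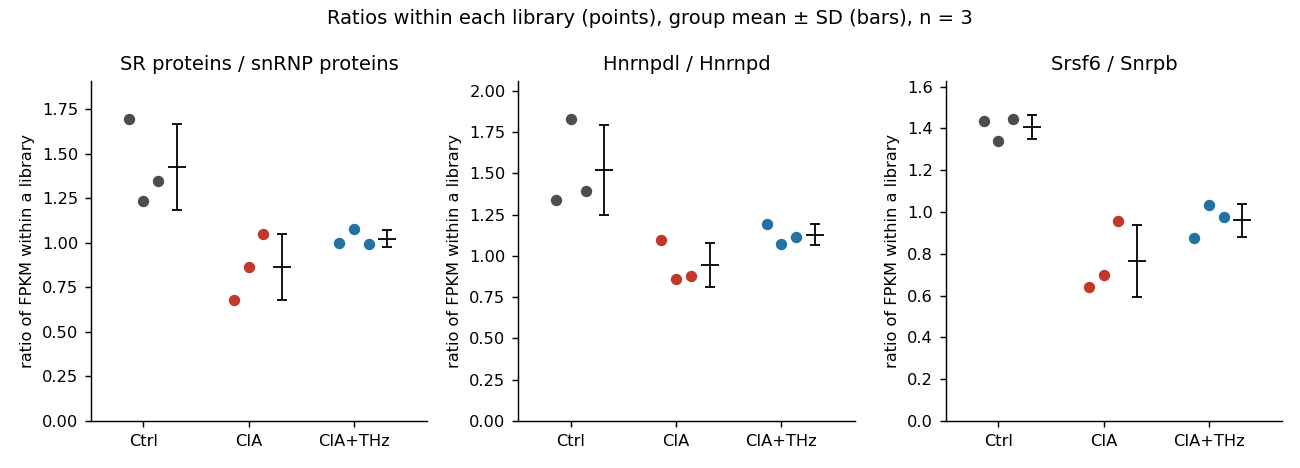
Ratios of FPKM within each library (y axes, from 0, no unit) for the summed SR over the summed snRNP proteins, for Hnrnpdl over Hnrnpd and for Srsf6 over Snrpb. Points are libraries and bars the group mean ± SD (n = 3). In all 3 panels every Ctrl library is above every library of the other groups.

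GC content moved with these fold changes. All tested genes were split into 5 groups of equal size by the GC content of their longest annotated transcript. The median log2 fold change in CIA against Ctrl went from -0.28 in the lowest group (31.0% to 43.8% GC) to 0.20 in the highest (55.4% to 69.4%), and in CIA+THz against CIA from 0.16 to -0.074. The SR proteins had a median GC content of 42.8%, the hnRNP proteins 44.1%, the snRNP proteins 45.7% and the SF3 and U2AF members 51.9%, against 49.7% for all tested genes. The lowest group held 6 of the 11 SR proteins and 4 of the 12 snRNP proteins. In that group 18.8% of all genes were lower at p below 0.05 in CIA against Ctrl and 10.2% higher in CIA+THz against CIA. The part of GC content in the SR result was not tested beyond a fit on values corrected for it in each library.

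With that correction Hnrnpdl kept both differences, at -0.47 (SE 0.12, limma adjusted p = 0.154) in CIA against Ctrl and 0.46 (SE 0.096, adjusted p = 0.134) in CIA+THz against CIA, both at unadjusted p below 0.05. Srsf6 and Srsf1 kept the first, at -0.31 (SE 0.12, adjusted p = 0.286) and -0.36 (SE 0.12, adjusted p = 0.252), but not the second, at 0.20 (SE 0.099, adjusted p = 0.408) and 0.21 (SE 0.11, adjusted p = 0.432). The fold change of Srsf3 in CIA went to -0.054 (SE 0.12, adjusted p = 0.881) and that of Srsf10 to -0.31 (SE 0.16, adjusted p = 0.414). The median of the SR proteins was then -0.21 in CIA against Ctrl and 0.058 in CIA+THz against CIA, and that of the snRNP proteins 0.39 and -0.21, with all 12 snRNP proteins above 0 in CIA against Ctrl. The medians of all genes were -0.0079 and -0.060. Hnrnpdl was the only member higher in CIA+THz than in CIA at p below 0.05, and Hnrnpm (-0.27, adjusted p = 0.320) and Snrpf (-0.75, adjusted p = 0.330) were lower. Of all 12198 genes in that fit, 434 were higher and 1363 lower. In the F-test no member passed adjusted p below 0.05, and 10 had p below 0.05. The share of all genes in that F-test is not given, so this count does not separate the members from all genes.

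**Figure D4:**
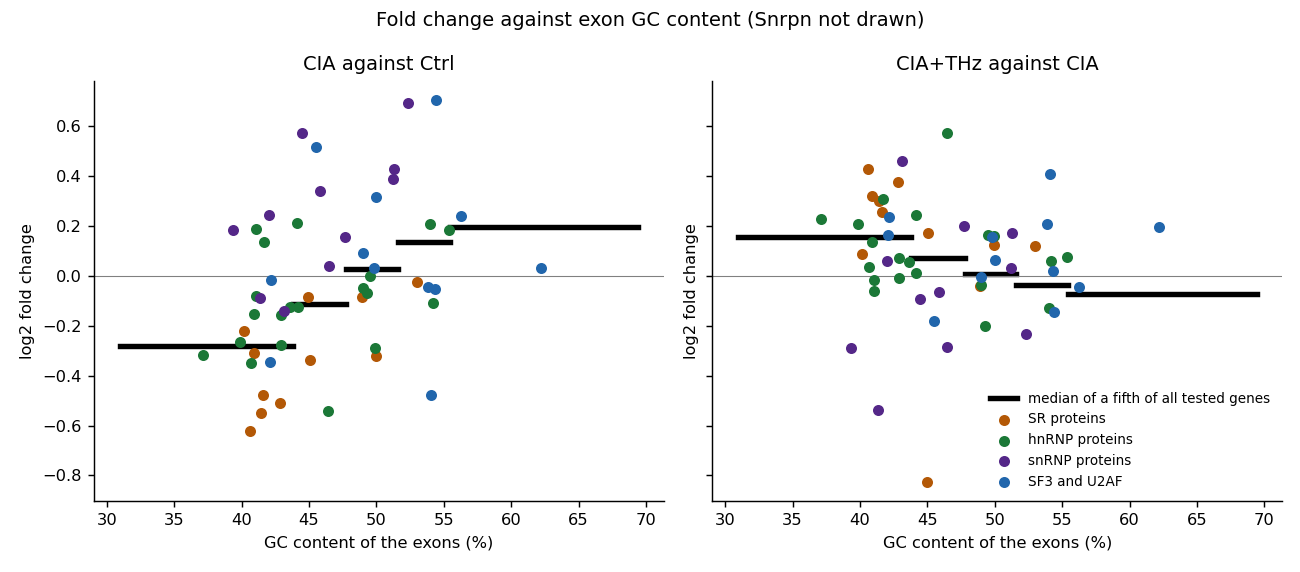
Log2 fold change (y axis) against the GC content of a gene's longest annotated transcript in percent (x axis, labelled as that of the exons) for the tested members, coloured by family, in CIA against Ctrl (left) and CIA+THz against CIA (right). Black bars are the medians of all tested genes in 5 groups of equal size by GC content, from -0.28 to 0.20 on the left and from 0.16 to -0.074 on the right. Most SR proteins lie at 40% to 46% GC and below the black bars on the left. Snrpn, with 1 library at 0, is not drawn.

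Markers of blood cell types also differed between the groups, and in a bulk sample fewer cells of a type and less RNA per cell cannot be told apart. The summed rescaled FPKM of 13 T cell markers was 504 to 563 in Ctrl, 411 to 429 in CIA and 503 to 662 in CIA+THz, so that CIA was below both other groups, which overlapped. The SR proteins summed to 331 to 339, 253 to 274 and 303 to 309, also lowest in CIA, with CIA+THz between CIA and Ctrl. Without rescaling the SR sums of CIA+THz and Ctrl overlapped. All 13 T cell markers were below 0 in CIA against Ctrl and all 13 were above 0 in CIA+THz against CIA, with 5 and 8 of them at p below 0.05. The 12 monocyte markers summed to 612 to 668, 983 to 1094 and 776 to 841, and the 7 NK cell markers to 144 to 187, 53.6 to 120 and 96.7 to 153. The 12 neutrophil markers summed to 12649 to 21322 in Ctrl, 14773 to 19448 in CIA and 10841 to 12327 in CIA+THz. The 10 B cell markers summed to 469 to 586, 534 to 692 and 632 to 818, the 9 platelet markers to 4829 to 5975, 4531 to 5763 and 3844 to 4597, and the 8 plasma cell markers to 116 to 140, 57.3 to 64.3 and 52.2 to 58.2. The NK cell sum, like the T cell sum, was below Ctrl in every CIA library, and its CIA+THz range overlapped both others. The 11 erythroid markers summed to 81292 to 125508 in Ctrl, 99789 to 114086 in CIA and 55588 to 77207 in CIA+THz. Alas2 holds most of that sum. By gene, 1 of the 11 was above 0 in CIA against Ctrl, with a median of -0.49. At p below 0.05 3 were lower and 0 higher, where 8.45% of all tested genes were lower. The 6 genes of all leukocytes summed to 1264 to 1413, 1487 to 1569 and 1351 to 1379. No marker was at 0 in every library. The part of these shifts in the results for the splicing genes was not tested.

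The rest of the spliceosome was read from lists of its parts, whose counts at p below 0.05 stand against 8.85% of all tested genes that were higher and 8.45% that were lower in CIA against Ctrl. Among 22 proteins of the U1, U5 and tri-snRNP particles 1 was higher and 2 lower in CIA against Ctrl at p below 0.05, with a median of 0.0029. Luc7l3, a U1-associated protein with an SR-like domain, was the one that followed the SR proteins, at 38.0 to 44.0 in Ctrl, 13.4 to 31.4 in CIA and 28.6 to 34.3 in CIA+THz (-1.15, SE 0.31, limma adjusted p = 0.152, then 0.78, SE 0.32, adjusted p = 0.363). Prpf3, a U4/U6 protein, was lower in CIA+THz, at 5.58 to 6.42 against 8.93 to 11.3 in CIA (-0.69, SE 0.15, adjusted p = 0.210). Snrnp40, a U5 protein, was higher in CIA+THz than in Ctrl, at 10.3 to 14.9 against 3.51 to 7.55 (1.05, SE 0.31, adjusted p = 0.164). The Lsm ring had no member of 8 past p below 0.05 in CIA against Ctrl, and the Prp19 complex had 1 of 12, which was lower. Its member Aqr, an intron-binding helicase, was higher in CIA+THz, at 5.24 to 6.89 against 3.37 to 5.37 in CIA (0.59, SE 0.23, adjusted p = 0.346).

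Of 11 spliceosomal helicases 1 was higher and 1 lower in CIA. Ddx5, the most abundant of those named here, read 327 to 362 in Ctrl, 259 to 281 in CIA and 300 to 304 in CIA+THz (-0.34, SE 0.11, limma adjusted p = 0.194), and Ddx41, which also senses DNA in myeloid cells, 5.20 to 8.46, 10.8 to 12.2 and 8.83 to 11.4 (0.81, SE 0.21, adjusted p = 0.141). Dhx15, which takes the lariat spliceosome apart, read 17.0 to 19.0 in CIA and 22.1 to 23.5 in CIA+THz (0.32, SE 0.10, adjusted p = 0.268). In the minor spliceosome, which removes a rare class of introns, 1 of 9 proteins was higher and 2 were lower in CIA. Rnpc3 read 4.81 to 8.71 in Ctrl, 2.16 to 5.70 in CIA and 4.49 to 8.39 in CIA+THz (-1.03, SE 0.40, adjusted p = 0.252).

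Of 20 kinases and related proteins of the SR family 13 were below 0 in CIA against Ctrl, where 6267 of all 12366 tested genes were, with a median of -0.18. At p below 0.05 3 were lower, where 8.45% of all tested genes were. Clk1, a kinase that phosphorylates SR proteins and regulates its own splicing, read 80.2 to 89.5 in Ctrl, 48.5 to 59.5 in CIA and 50.4 to 67.5 in CIA+THz (-0.64, SE 0.12, limma adjusted p = 0.0700). Unlike for Srsf6, the CIA and CIA+THz ranges of Clk1 overlapped (0.12, SE 0.14, adjusted p = 0.746). Pnn, an SR-related protein of the exon junction, read 16.0 to 19.6, 8.19 to 13.4 and 14.2 to 16.9 in the 3 groups (-0.76, SE 0.20, adjusted p = 0.151). Among 32 other regulators of splicing 8 were lower and 2 higher in CIA against Ctrl at p below 0.05, where 8.45% of all tested genes were lower and 8.85% higher. Mbnl1, which favours the adult forms of many exons, read 89.0 to 108 in Ctrl, 55.2 to 70.7 in CIA and 61.0 to 75.7 in CIA+THz (F-test adjusted p = 0.0461), Mbnl2 54.1 to 69.9, 38.9 to 45.7 and 37.0 to 48.2, and Rbm39 34.9 to 38.0, 24.4 to 28.2 and 26.7 to 30.1. All 3 were below Ctrl in every library of both arthritic groups, and their CIA and CIA+THz ranges overlapped.

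Decay of faulty transcripts bears on SR genes because of their poison exons. In the GENCODE annotation 9 of the 11 SR genes (81.8%) have at least 1 transcript marked for nonsense-mediated decay, as have 10 of 20 tested hnRNP genes and 4 of 12 snRNP genes, against 28.6% of all tested genes. SR genes also have a median of 7 annotated transcripts, where all tested genes have 5. Of 15 exon junction and decay factors, Eif4a3, the helicase at the core of the exon junction complex, was higher in CIA, at 20.5 to 27.5 against 13.9 to 18.9 in Ctrl (0.61, SE 0.17, limma adjusted p = 0.164). Smg1, the kinase that starts decay, was lower, at 16.1 to 18.6 against 22.2 to 27.1 (-0.54, SE 0.14, adjusted p = 0.131), and stood at 20.9 to 22.8 in CIA+THz (0.33, SE 0.10, adjusted p = 0.279). Smg6, the endonuclease, read 8.09 to 9.11 in CIA and 5.10 to 6.17 in CIA+THz (-0.54, SE 0.15, adjusted p = 0.250). The values are sums over each gene's transcripts, so productive and decay forms of a gene are not separated.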

How the data were processed

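Blood RNA of 9 libraries was read from the gene table deposited by the authors, which gives FPKM per gene and library. The submitters' processing notes name build mm10, bcl2fastq 2.0, HISAT2, StringTie and DESeq2 without their roles, and the TruSeq RNA V2 kit does not mark strand, so overlapping genes on opposite strands cannot be separated. No counts were used here and low FPKM show no whole-read steps, so the depth of a library, and the precision it gives, is unknown. FPKM were divided by a median-of-ratios factor per library (0.847 to 1.24, over 10312 genes above 0 in all libraries), and log2(rescaled FPKM + 0.1) of 12366 genes with a mean of at least 0.1 was fitted with limma 3.58.1 (lmFit, eBayes with trend) in R 4.3.3: an F-test over all 9 libraries and, for each pair of groups, a fit of its 6 libraries. The criteria were p below 0.05, and with it an absolute log2 fold change above 0.67 in pairs, as in the study, with Benjamini-Hochberg adjusted p over all tested genes beside them. The step was tested on simulated data. The members and gene lists were chosen with earlier results of these data known. Members are named where they are among the 7 smallest F-test p of their family (mean of at least 1), its highest or lowest, or pass the pairwise criterion, and the 3 smallest per other list; further members are named where a count of 5 or fewer or a level called for it, after their values were seen. Positions, GC content, overlaps and transcript types come from GENCODE M21 on GRCm38, matched by symbol (12198 tested genes and all 56 members have GC content), and promoter windows from RefSeq. GC content is that of the longest annotated transcript of a symbol, of any type, so it can include retained introns. That of Hnrnpr has 21452 bases. Overlaps are stated for only some of the members that have one. GC correction is a loess of log2 values on GC content in each library (span 0.5). Ahsp and Ddx39a, listed as a marker and a helicase, were not analysed here.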

Additional observations from a re-analysis of the deposited data

How the results depend on the processing

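With FPKM as deposited, 23 members differed across the groups (13 as reported), 0, 2 and 8 met the fold criterion in CIA against Ctrl, CIA+THz against CIA and CIA+THz against Ctrl (1, 0 and 0 as reported), and 6, 29 and 20 passed p alone (13, 5 and 7 as reported). That setting reversed Hnrnpc (0.022) and Hnrnpm (0.037) in CIA+THz against Ctrl. In the same comparison it moved the median of the SR proteins from -0.17 to 0.14, and that of all genes from 0.039 to 0.33. Scaled to an equal sum outside the 100 highest genes, 0, 1 and 2 met the fold criterion and 18 passed p alone in CIA+THz against CIA. At p alone in that comparison, 728 of all tested genes were higher and 906 lower as reported. These counts were 2462 and 138 with FPKM as deposited, and 1526 and 337 with the equal sum. A mean of at least 1 gave 2 by fold in CIA against Ctrl. Without the trend, 7 differed across the groups, 6 and 3 passed p alone in CIA against Ctrl and CIA+THz against CIA, and 1 met the fold criterion in CIA+THz against Ctrl. All 9 libraries in 1 fit gave 2 by fold in CIA against Ctrl and 1 in CIA+THz against Ctrl. With adjusted p, 2 differed across the groups and 0 in every pair. GC correction gave 2 by fold in CIA against Ctrl (Snrpa1 and Snrpn). In CIA+THz against CIA it gave 1 by fold (Snrpf) and 3 at p alone, where 434 of all 12198 genes were higher and 1363 lower. GC correction also reversed Hnrnph1 in CIA against Ctrl (0.046). Shares over all genes are not given here for the counts across the groups, by fold or under the other settings. Those counts therefore do not separate the members from all genes. The cause was not tested.

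Leaving out 1 library gave 6 to 13 members across the groups, with 6 without CIA+THz replicate 3 and 7 without Ctrl replicate 1. By fold it gave 0 to 3 in CIA against Ctrl, 0 to 1 in CIA+THz against CIA and 0 to 2 in CIA+THz against Ctrl. At p alone it gave 5 to 11 in CIA against Ctrl (5 without Ctrl replicate 1, 8 without Ctrl replicate 3, 7 without CIA replicate 2), 3 to 8 in CIA+THz against CIA (3 without CIA+THz replicate 2 or 3, 8 without CIA replicate 1) and 4 to 9 in CIA+THz against Ctrl (4 without CIA+THz replicate 3). Shares over all genes are not given for the counts across the groups or by fold, so these do not separate the members from all genes. At p alone, counts over all genes moved too. Without Ctrl replicate 1, 916 were higher and 732 lower in CIA against Ctrl, against 1095 and 1045 as reported. Without CIA+THz replicate 3, 746 were higher and 977 lower in CIA+THz against Ctrl, against 1038 and 1198. Without CIA replicate 1, 849 were higher and 935 lower in CIA+THz against CIA, against 728 and 906.

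Same-numbered libraries did not deviate together (correlations of -0.052 to 0.031), so the replicate numbers were not taken as pairs. With the replicate number as a block, 2 members met the fold criterion in CIA against Ctrl and 1 in CIA+THz against Ctrl, and 11 differed across the groups. Here too no share over all genes is given beside them. Of 400 repeats of the 25 named differences of 16 genes, 259 kept direction and p below 0.05, 138 kept direction only and 3 reversed. In 25 of the repeats only the p-value was adjusted, and all 25 kept direction only. Fold changes are also the same by design without the trend, with another filter, with the block and with all libraries in 1 fit. A kept direction in these settings is therefore no test of it. Depth could not be read from the FPKM, so low members such as Srsf12 and Snrpn are limited to their listed values.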
